A study of Mus musculus with 38 samples.

Results

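RNA of interphase two-cell mouse embryos was compared between polysomes (P) and the lighter, non-polysome (NP) part of the same kind of sucrose gradient. The comparison rests on 6 of the 38 samples of the study, 3 labelled as polysome and 3 as non-polysome, with the replicates A, B and C in each. These are the samples whose names give the two-cell stage without the M that marks M-phase. The embryos were wild type and of the ICR strain. They are taken as untreated apart from the hormones given to the females before mating with males of the same strain. The methods name nocodazole for metaphase zygotes and two-cell embryos, and this is read here as M-phase embryos of both stages. Zygotes were taken from the oviduct and cultured to the two-cell stage, and the embryos were lysed after cycloheximide, which holds ribosomes on the mRNA. The methods give an age of at least 6 weeks for the mice that gave oocytes, and the sources used here do not say how many embryos or females stand behind each library. Of the other stages, only zygotes in interphase (6 libraries, replicates B, C and D) and the M-phase counterpart of the two-cell stage (two-cell M, 6 libraries, replicates A, B and C, exposed to nocodazole) are used below, to test where the two-cell difference is not the same. The letters are given as replicates, and where these do not stand for separate embryo collections the p-values below measure only the spread between libraries, which may be technical.

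An mRNA that carries many ribosomes sinks deep into a sucrose gradient, while mRNA that is free, repressed or bound by few ribosomes stays near the top. The position of an mRNA therefore depends both on how often ribosomes start on it and on how long its coding sequence is, since a short coding sequence holds fewer ribosomes. In the mouse, the two-cell embryo still carries mRNA stored by the oocyte, much of which is being degraded, and transcribes its own genome in a large wave for the first time. Stored maternal mRNA is often kept silent with a short poly(A) tail, and sequence elements near its 3′ end help to decide when the tail is extended.

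The values are fragments per kilobase of exon, scaled to the mapped fragments of the library (FPKM), a level within one library. A difference between P and NP is therefore a difference in relative level, and a change in one mRNA and a change in the rest of the fraction's RNA cannot be told apart. The deposited table lists 23125 genes and has a floor of 0.01 FPKM, which stands for no detected fragment. From the step of a single fragment in genes with 1 transcript, the libraries were estimated to hold 13240000 to 20780000 mapped fragments in NP and 19100000 to 21020000 in P, and those of two-cell M 8490000 to 19450000. Between 11670 and 12902 genes were at the floor in the NP libraries, and between 9645 and 10500 in the P libraries. Log2 levels of replicates correlated across genes with a Pearson r of 0.466 to 0.537 in NP and 0.661 to 0.734 in P, and genes are not independent replicates. Of 13 markers of the oocyte and early embryo, 10 had all 6 values above 0.1 FPKM, among them Dppa3, Ooep, Tcstv1 and Tcstv3. Nlrp5 (0.0137 to 2.28 FPKM), Obox3 (0.0178 to 0.611 FPKM) and Zfp352 (0.01 to 14.3 FPKM) fell below that level in at least 1 library. The 4 oviduct epithelium markers in the table lay at or below 0.144 FPKM in all libraries. Of the 10 cumulus or granulosa markers in the table, 5 were at the floor throughout, while Inha reached 20.1 FPKM and Cyp11a1 14.4 FPKM in non-polysome B, and Cyp11a1 2.94 FPKM in polysome B. The granulosa marker Foxl2 had 1.20 FPKM in non-polysome A. The white blood cell marker Lyz2 reached 7.85 FPKM in non-polysome C, with 1.04 and 2.86 FPKM in polysome B and C. Tyrobp, another such marker, had 1.52 FPKM in non-polysome C. Hba-a1, an alpha globin, lay between 97.3 and 160 FPKM in NP and between 33.5 and 82.9 FPKM in P, while Hbb-bs and Hbb-bt were at or near the floor. Whether other cells contributed to any difference below was not tested.

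To ask which mRNAs differed in level between polysomes and the non-polysome fraction, 7233 genes whose geometric mean across these 6 libraries reached 0.1 FPKM were tested with limma. In P, 174 genes were higher and 265 were lower at a Benjamini-Hochberg adjusted p under 0.05 and a log2 difference beyond 1, together 6.07% of the genes tested (2.41% higher and 3.66% lower). The most abundant genes that were lower in polysomes included Omt2b and Omt2a, Tcl1 and its relatives, the maternal factor Dppa3, the histone variants H2afz and H3f3b and the cyclin-dependent kinase subunits Cks1b and Cks2. Abundant genes that were higher in polysomes included the ubiquitin gene Ubb, the ferritin heavy chain Fth1, the kinase gene Mapk3 and the tubulin gene Tubb2a.

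These counts depend on the treatment of pairing, on single libraries and on scale, and the same limit holds for every single gene given below as called. With the replicate letter as a block, as one gradient gives both fractions, no gene was called (0 of 7233, smallest limma adjusted p 0.0837). An unadjusted p under 0.05 was reached by 1448 genes, against 1598 without the block. The 439 called genes then had an adjusted p of 0.0837 to 0.14. In this balanced design the block leaves each fitted difference unchanged, so nothing is read from their sign. Without polysome A or without polysome C no gene was called either (0 called, with 1183 and 1201 genes at an unadjusted p under 0.05). Among the 3130 genes with all 6 values above 0.1 FPKM, a set chosen after the data were seen, 108 were higher (3.45%) and 588 lower (18.8%) in P, 22.2% in all, and with the block 94 (3%) and 571 (18.2%), 21.2% in all. The median log2 difference of that set was -0.72, against 0.02 for all genes tested, and the set keeps 250 of the 265 genes lower in P but 29 of the 174 higher, so its filter sets the balance of directions and nothing is read from that balance. Its counts were 20 higher and 226 lower without polysome A, and 26 and 268 without polysome C. The share of higher genes among those called was 39.6% as deposited. It was 64.4% after quantile normalization (201 higher, 111 lower) and 64.6% after division by the FPKM sum of each library (237 higher, 130 lower), which moved the median difference of all genes from 0.02 to 0.55. After quantile normalization 121 of the 174 higher and 97 of the 265 lower genes were still called. All of them kept their direction under both scalings. Division by the FPKM sum could not have turned them, as it moves all genes alike by less than the 1 needed for a call.

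**Figure D1:**
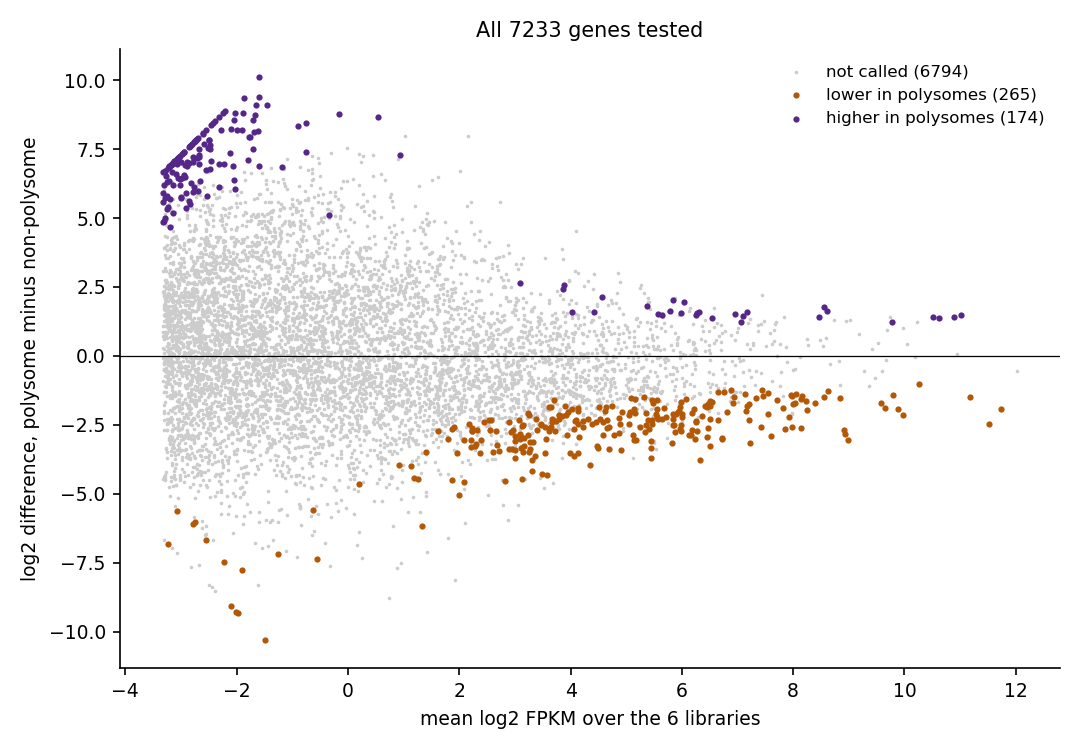
Each point is 1 of the 7233 genes tested, with the mean log2 FPKM over the 6 two-cell libraries on the x axis and the log2 difference, polysome minus non-polysome, on the y axis. The 265 genes called lower in polysomes lie mostly at high levels, while most of the 174 genes called higher lie at the left, near the floor of the non-polysome libraries.

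Both directions differed in the level at which genes were called. Of the 265 genes lower in P, 250 had all 6 values above 0.1 FPKM. The median level of the 265 in NP was 64.5 FPKM and their median log2 difference 2.52 in size. All 250 were also called when only genes with every value above 0.1 FPKM were tested, with and without the block. Of the 174 genes higher in P, 137 had all 3 NP values under 0.1 FPKM. These 137 passed the filter of 0.1 FPKM only through P, so they are counted, but nothing more is read from their calls here or below. The median level of the 174 in P was 2.45 FPKM. Only 29 had all 6 values above 0.1 FPKM, and these 29 were also called in the restricted test, with and without the block. The restricted test refits the same values on a set chosen after the data were seen, and calls 22.2% of its genes. That the 250 and the 29 were called again was therefore close to given and is no separate support for them. At least 1 NP value was at the floor in 1908 of the genes tested, and at least 1 P value in 866, so a low level in NP and a missed detection cannot be told apart for those genes. Among protein-coding genes 134 of 5573 were higher (2.4%) and 183 lower (3.28%). Pseudogenes were called lower in 74 of 1095 cases (6.76%) and higher in 17 (1.55%). Other non-coding genes were called higher in 23 of 565 cases (4.07%) and lower in 8 (1.42%), with a median difference of 0.69. Reads of a processed pseudogene and of its parent gene can be exchanged, so levels of these genes are uncertain.

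**Figure D2:**
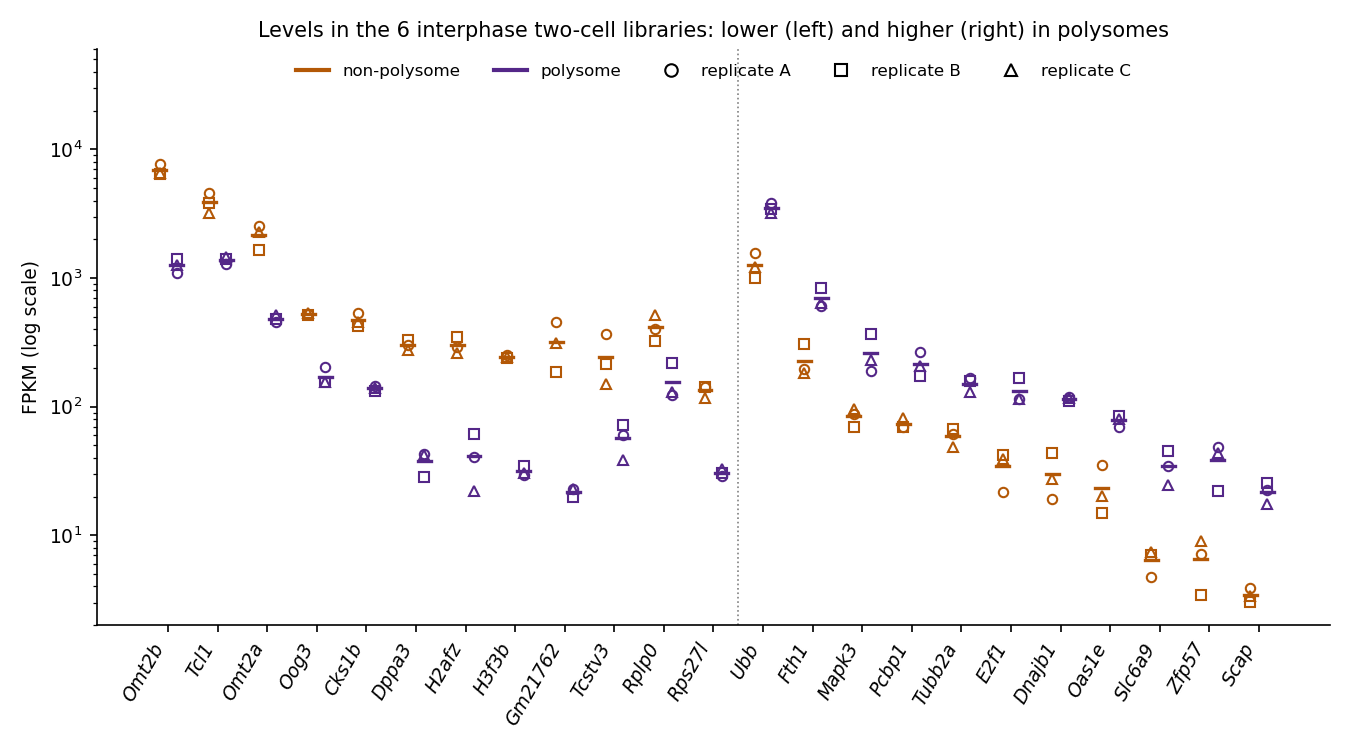
FPKM on a log axis for 12 genes lower (left of the dotted line) and 11 genes higher in polysomes (right). Symbols are the 3 replicates of each fraction and bars their means. The polysome and non-polysome values of each gene shown do not overlap.

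Several abundant genes known for their expression in oocytes, among them Omt2b, Tcl1 and Omt2a, were lower in polysomes. Their levels in two-cell NP were above those in zygote NP, which were 301 to 526 FPKM for Omt2b, 122 to 213 FPKM for Omt2a and 668 to 1019 FPKM for Tcl1. P also lay below NP in zygotes, where P had 56.6 to 63.6, 20.2 to 26.0 and 226 to 279 FPKM in the same order. The fraction differences of these genes were not called different from those of zygotes (limma interaction adjusted p = 0.553, 0.254 and 0.774). Of 24 tested genes for the egg coat, sperm binding and oocyte-secreted or oocyte-restricted proteins, 9 were lower in P and 0 were higher, against 3.66% and 2.41% of all genes. The median difference of the list was -0.51 as deposited and -0.93, -1.09 and -0.52 in replicates A, B and C, and it took the other sign in 1 of 28 alternative treatments of the data (0.03, after division by the FPKM sum). Omt2b (chr9:78327589-78329620, GRCm38), an oocyte-expressed gene, had 7756, 6428 and 6527 FPKM in NP and 1090, 1394 and 1269 FPKM in P. It was the gene with the highest level among those named here, and its log2 difference was -2.47 ± 0.15 (SE, n = 3 libraries per fraction, limma adjusted p = 0.00866). Omt2a, next to it on chromosome 9, had 2519, 1651 and 2263 FPKM in NP and 454, 478 and 512 FPKM in P. Tcl1, an activator of the AKT kinase that is also expressed in lymphoid and embryonic stem cells, had 4619, 3845 and 3227 FPKM in NP and 1285, 1401 and 1468 FPKM in P (log2 difference -1.48 ± 0.16, limma adjusted p = 0.017). Its paralogs Tcl1b1, Tcl1b2, Tcl1b3, Tcl1b4 and Tcl1b5 were all lower in P, by 1.32 to 1.96 on the log2 scale. The paralogs are alike in sequence, so reads may be shared among them. Oosp1, an oocyte-secreted protein, had 44.6 to 60.4 FPKM in NP and 8.42 to 11.8 FPKM in P.

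The egg coat genes themselves gave other values. Zp1 had 6.17, 0.308 and 4.52 FPKM in NP and 21.6, 38.7 and 24.4 FPKM in P (limma adjusted p = 0.124). Zp3 overlapped between fractions, with 7.95, 1.06 and 24.9 FPKM in NP and 20.1, 54.5 and 25.9 FPKM in P. The growth factor gene Gdf9 had 45.2 to 64.5 FPKM in NP and 75.7 to 107 FPKM in P, which did not pass the test (limma adjusted p = 0.274).

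Sequence near the 3′ end was examined because the cytoplasmic polyadenylation element, a U-rich motif close to the poly(A) signal, controls the tail of stored maternal mRNA. TTTTAT or TTTTAAT was searched on the transcript strand in the last 100 bases of the GENCODE transcript with the longest coding sequence. It was found in 933 of 5045 protein-coding genes tested (18.5%), in 47 of the 153 genes lower in P with such an end (30.7%) and in 20 of the 125 higher in P (16.0%). The 125 include genes that passed the level filter only through P, so nothing is read from their share. The windows of 30 bases below belong to abundant genes of each direction with a match, read on the transcript strand in GRCm38, with the match in capitals.

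Omt2b (lower, chr9:78329559-78329588): tttaacggTTTTATaataaataaaagtttc

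Omt2a (lower, chr9:78312012-78312041): tttaacggTTTTATaataaataaaagtttc

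Tcl1 (lower, chr12:105216793-105216822): gtgtgggaTTTTATgtggttctattttaga

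Bcl2l10 (lower, chr9:75351583-75351612): taatacatTTTTAATaacttcaaattctta

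Oog3 (lower, chr4:144157557-144157586): taataaatgtgttaactttgTTTTATtttt

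Phb2 (higher, chr6:124716921-124716950): aataaaatTTTTATtacttaaagccaaaaa

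The windows of Omt2a and Omt2b are identical, and reads may be shared between this pair of near-identical genes. Bcl2l10, a BCL2 family gene expressed in oocytes, had 1705, 1383 and 1304 FPKM in NP and 507, 621 and 507 FPKM in P, a log2 difference of -1.42 ± 0.17 (SE, n = 3, limma adjusted p = 0.0175). Phb2, which encodes prohibitin 2 of the inner mitochondrial membrane, had 41.2 to 49.7 FPKM in NP and 112 to 195 FPKM in P (log2 difference 1.57 ± 0.30, limma adjusted p = 0.0325). A match is a description of the letters, and the motif is also present in genes that did not differ. The search did not ask where a match lies relative to the poly(A) signal. In the Phb2 and Oog3 windows the match follows an aataaa.

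Among 29 tested genes of the subcortical maternal complex and other maternal-effect genes, 2 were higher (6.90%, against 2.41% of all genes tested) and 3 lower in P (10.3%, against 3.66%). The list median was 0.57, but it took the other sign in 4 of 28 alternative treatments of the data and was positive in only 1 of the 3 replicates. Dppa3 (chr6:122626410-122630272), which protects the maternal genome from demethylation, had 299, 327 and 276 FPKM in NP and 42.8, 28.5 and 42.2 FPKM in P. Its log2 difference was -3.01 ± 0.25 (SE, n = 3, limma adjusted p = 0.0139). Oog3 and Oog1, oocyte-specific leucine-rich repeat genes, were at 519 to 539 FPKM and 77.3 to 104 FPKM in NP and at 155 to 202 FPKM and 21.7 to 26.7 FPKM in P. Zfp57, a zinc finger protein that maintains imprints, went the other way, with 7.17, 3.41 and 9.06 FPKM in NP and 49.0, 22.2 and 43.7 FPKM in P (log2 difference 2.58 ± 0.54, limma adjusted p = 0.0437). Oas1e, an oligoadenylate synthetase family gene, had 14.97 to 35.06 FPKM in NP and 69.4 to 84.6 FPKM in P. Ooep, a subunit of the subcortical maternal complex, had 142, 61.8 and 170 FPKM in NP and 236, 250 and 291 FPKM in P and did not pass the test (limma adjusted p = 0.153). Zbed3, another member, overlapped between fractions, with 769 to 925 FPKM in NP and 631 to 948 FPKM in P.

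Genes of embryonic genome activation were lower in polysomes where they were called, and their list had the lowest median as deposited. Of 54 tested genes, 7 were lower in P (13%, against 3.66% of all genes tested) and 0 higher, and the fractions did not overlap with P below in 25 of them (46.3%, against 19.1% of all genes tested). The median difference was -1.84, lay between -2.35 and -1.14 over 28 alternative treatments, and was -1.71, -1.65 and -2.02 in replicates A, B and C. Tcstv3, a two-cell-specific gene also found in the two-cell-like state of embryonic stem cells, had 364, 214 and 151 FPKM in NP and 60.2, 72.2 and 38.2 FPKM in P (log2 difference -2.05 ± 0.41, limma adjusted p = 0.0394). Ddit4l, an inhibitor of mTOR signalling, had 73.2, 38.7 and 43.4 FPKM in NP and 4.19, 1.58 and 2.46 FPKM in P (log2 difference -4.29 ± 0.52, limma adjusted p = 0.0175). B020004C17Rik had 163 to 282 FPKM in NP and 38.8 to 54.4 FPKM in P. Tcstv1 had 145 to 288 FPKM in NP and 61.5 to 96.0 FPKM in P, with no overlap, but did not pass (limma adjusted p = 0.071). Outside this list the homeobox gene Obox8 was at 59.0 to 93.3 FPKM in NP and 4.13 to 13.7 FPKM in P, and Sox15, a transcription factor gene, at 16.8 to 29.8 FPKM in NP and 0.158 to 3.05 FPKM in P.

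Several of these genes lie together on chromosome 13. In the window from 1 Mb before to 1 Mb after the pair Tcstv1 and Tcstv3 (chr13:119893388-120318178), chosen after the values were seen, 22 genes were tested, of which 9 were lower in P and 1 was higher, where 3.66% and 2.41% of all genes tested were called. The lower genes were AF067063, D13Ertd608e, B020031M17Rik, Gm21818, Gm21762, Gm21731, AF067061, BC147527 and Tcstv3. Gm21762 (chr13:120214593-120215947) had 457, 186 and 315 FPKM in NP and 23.0, 19.7 and 22.8 FPKM in P, a log2 difference of -3.78 ± 0.36 (SE, n = 3, limma adjusted p = 0.0162). Gm21731 had 159 to 245 FPKM in NP and 20.9 to 32.9 FPKM in P. The gene called higher was the processed pseudogene AC238940.1, at 0.01, 0.01 and 0.78 FPKM in NP and 33.2, 10.0 and 19.4 FPKM in P. Many genes of this region are copies of one another, so how reads were divided among them is uncertain and the 9 calls are not independent.

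Among ribosomal protein genes, those called were lower in polysomes. Of 77 cytosolic ribosomal protein genes tested, 12 were lower in P and 0 higher (15.6% and 0%, against 3.66% and 2.41% of all genes tested), and 71 had a negative difference. P lay below NP without overlap in 55 of them (71.4%, against 19.1% of all genes tested). The median difference was -1.76, between -1.99 and -1.20 over the alternatives, and -2.19, -1.51 and -1.77 in replicates A, B and C. The FPKM of the list summed to 2111, 2118 and 2111 in NP and to 551, 908 and 641 in P. Rplp0, the central protein of the ribosomal stalk, had 402, 323 and 514 FPKM in NP and 123, 217 and 130 FPKM in P (log2 difference -1.42 ± 0.30, limma adjusted p = 0.0453). Rpl41, with a short coding sequence (138 nt), had 263 to 272 FPKM in NP and 60.3 to 102 FPKM in P. Rps27l, a p53-inducible relative of Rps27, had 118 to 142 FPKM in NP and 29.1 to 32.7 FPKM in P (log2 difference -2.12 ± 0.23, limma adjusted p = 0.017). Pseudogenes of ribosomal protein genes are many, and reads shared with them make these levels uncertain.

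The 5′ end was examined because ribosomal protein mRNAs start with a run of pyrimidines (the terminal oligopyrimidine motif), through which mTOR signalling controls their entry into polysomes. The run was taken as a C followed by at least 4 C or T on the transcript strand, with the C within 3 bases of a start site in RefSeq (GRCm38.p6). It was present in 3651 of 27025 genes with a start site (13.5%) and in 24 of the 56 ribosomal protein genes tested that had one (42.9%). The windows of 30 bases show the 4 most abundant ribosomal protein genes with a run, in capitals, and the 2 most abundant without. Each starts 8 bases before the start site.

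Rps27l (chr9:66946078-66946107): tccccgccgCCTCTatcccggaagttgctg

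Rplp2 (chr7:141447643-141447672): gcgtcttcCTTTCgccgccggacgccgccg

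Rps9 (chr7:3704033-3704062): tgtctCTCTTTgtctcgggcctgagttcgt

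Rpl15 (chr14:18270965-18270994): aaagccttCTTCCTTTCCTCTggcggcagc

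Rplp0 (chr5:115559459-115559488): ggtttcgaggaccgcctggttctcctataa

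Rpl41 (chr10:128549147-128549176): gccggctcggaagtgacgacaccgagcacg

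Among ribosomal protein genes the median difference was -1.90 in the 24 with a run and -1.77 in the 32 without. Among the other protein-coding genes tested, it was 0.44 in the 648 with a run and 0.21 in the 3661 without, and 3.24% and 2.73% were called lower. Rps9 had 42.1 to 86.6 FPKM in NP and 10.8 to 11.7 FPKM in P. Rplp2 had 47.7 to 70.2 FPKM in NP and 17.7 to 25.3 FPKM in P. Rpl15, with the longest run shown, had 27.9, 51.5 and 23.1 FPKM in NP and 5.49, 14.5 and 7.41 FPKM in P and did not pass the test (limma adjusted p = 0.0898). The start site used in embryos was not measured, and a gene counted without a run lacks it only within 3 bases of the annotated start. The Rplp0 window, for example, holds ctcct further in.

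Other genes of translation were mixed. Of 35 initiation factor genes tested, 1 was higher (2.86%, near the 2.41% of all genes) and 3 lower in P (8.57%, against 3.66%), with a median of -0.86. Eif1, which helps to select the start codon, had 295, 317 and 285 FPKM in NP and 109, 106 and 142 FPKM in P (log2 difference -1.34 ± 0.21, limma adjusted p = 0.0197). Eif5, a partner in start codon selection, had 26.4 to 30.1 FPKM in NP and 4.01 to 8.48 FPKM in P, and Eif4a2, a helicase, 2.37 to 8.87 FPKM in NP and 0.0571 to 0.165 FPKM in P. Eif1ad was the one higher, at the floor in the 3 NP libraries and at 0.935 to 1.40 FPKM in P. It passed the level filter only through P, so nothing is read from its call. Of the 12 genes listed under elongation and termination factors, only Tpt1 was called. It was lower (8.33%, against 3.66% of all genes tested), with 22.95 to 33.01 FPKM in NP and 6.81 to 9.01 FPKM in P. Tpt1 is not itself an elongation or termination factor, so this share is not read as a result about such factors. The elongation factor gene Eef2 had 3.61, 30.9 and 21.6 FPKM in NP and 48.1, 47.04 and 51.04 FPKM in P and did not pass (limma adjusted p = 0.236). Of 16 aminoacyl-tRNA synthetase genes, Wars was higher in P (6.25%, against 2.41% of all genes tested), with 0.0114 to 0.0211 FPKM in NP and 1.39 to 2.28 FPKM in P. Wars also passed the level filter only through P, so nothing is read from its call. The list median of 1.08 took the other sign in 10 of 28 alternatives. The mitochondrial ribosomal protein genes (59 tested, 1 higher and 1 lower, 1.69% each, against 2.41% and 3.66% of all genes tested, median 0.11) took the other sign in 18 of 28 alternatives.

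**Figure D3:**
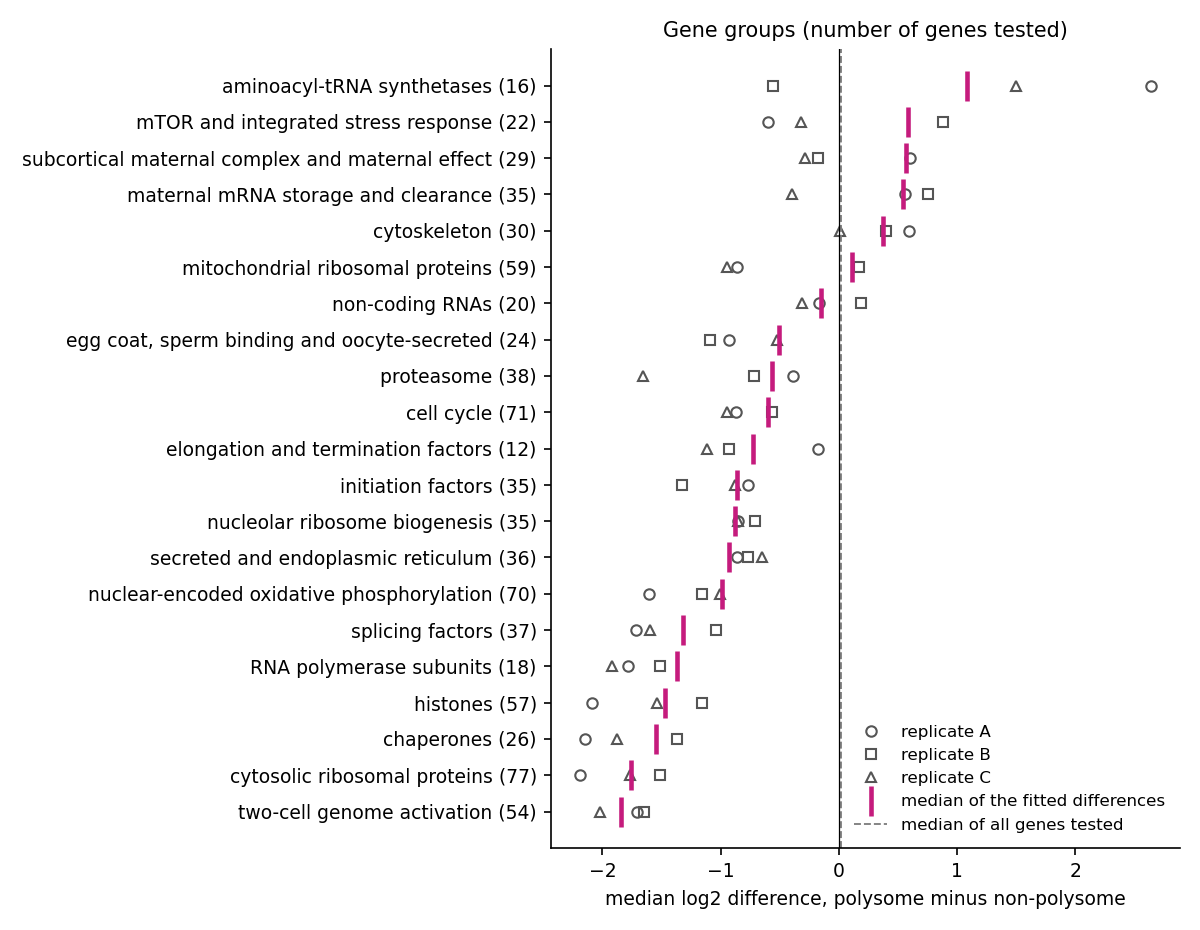
Median log2 difference, polysome minus non-polysome, of 21 gene groups, with the number of genes tested in parentheses. Symbols are the medians within replicates A, B and C, the vertical bar is the median of the fitted differences, and the dashed line is the median of all genes tested. The groups at the bottom lie below 0 in all 3 replicates, while several groups at the top fall on both sides of 0.

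Some histone genes and genes of RNA synthesis and processing were lower in polysomes, while most members of these lists did not pass the test. Of 57 histone genes tested, 6 were lower in P (10.5%, against 3.66% of all genes tested) and 0 higher (against 2.41%), with a median of -1.47 (-2.09, -1.16 and -1.54 in replicates A, B and C). Of the calls, 4 were histone variants (H2afz, H2afx, H3f3a and H3f3b), and the others were Hist1h2bk and Hist2h2aa1. H3f3b, which encodes the variant H3.3, had 250, 240 and 245 FPKM in NP and 29.4, 34.7 and 30.7 FPKM in P (log2 difference -2.96 ± 0.21, limma adjusted p = 0.0101). H2afz had 288, 350 and 259 FPKM in NP and 40.3, 60.9 and 22.3 FPKM in P (log2 difference -2.97 ± 0.40, limma adjusted p = 0.0185). Hist1h1a overlapped between fractions, at 233 to 324 FPKM in NP and 209 to 359 FPKM in P.

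Of 37 splicing factor genes, 5 were lower (13.5%, against 3.66% of all genes) and 0 higher (Snrpb, Snrpc, Snrpe, Snrpf and Sf3b5, all proteins of small nuclear ribonucleoproteins), with a list median of -1.32. Sf3b5 had 81.2 to 124 FPKM in NP and 19.6 to 25.3 FPKM in P. Of 18 RNA polymerase subunit genes, 4 were lower (22.2%, against 3.66%) and 0 higher (Polr1c, Polr2e, Polr2f and Polr2h), with a median of -1.37. Polr2e had 98.5, 129 and 77.0 FPKM in NP and 22.7, 29.3 and 27.9 FPKM in P. Of 35 genes of nucleolar ribosome biogenesis, Nip7 and Nop16 were lower (5.71%, near the 3.66% of all genes). Nop16 had 52.0, 36.3 and 32.6 FPKM in NP and 1.90, 5.20 and 3.98 FPKM in P, and Nip7 had 30.9 to 88.1 FPKM in NP and 6.59 to 11.9 FPKM in P. Elob, an elongin subunit, had 27.9 to 38.6 FPKM in NP and 2.92 to 6.15 FPKM in P (log2 difference -3.03 ± 0.44, limma adjusted p = 0.0187). Its oocyte-expressed relative Elobl had 219 to 298 FPKM in NP and 330 to 443 FPKM in P, with no overlap, and did not pass (limma adjusted p = 0.153).

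Cell cycle genes were found in both directions. Of 71 tested, 7 were lower (9.86%, against 3.66% of all genes tested) and 1 higher in P (1.41%, against 2.41%), with a median of -0.60 that approached 0 (-0.07) after division by the FPKM sum. Cks1b and Cks2, small subunits of cyclin-dependent kinases, had 533, 421 and 454 FPKM and 173, 169 and 127 FPKM in NP. In P they had 145, 133 and 139 FPKM and 21.8, 21.1 and 25.1 FPKM. The log2 difference was -1.75 ± 0.18 for Cks1b and -2.77 ± 0.26 for Cks2 (SE, n = 3, limma adjusted p = 0.0162 for both). Cyclin genes Ccna2 and Ccne1 were lower in P, with 20.9 to 52.7 FPKM and 10.0 to 18.2 FPKM in NP and 5.14 to 9.81 FPKM and 0.907 to 2.39 FPKM in P. Mad2l1, of the spindle checkpoint, Gmnn, which blocks re-replication, and Fbxo5, an inhibitor of the anaphase-promoting complex, were the other 3. E2f1, a transcription factor of the G1 to S transition, was higher, with 21.9, 42.3 and 39.2 FPKM in NP and 115, 167 and 114 FPKM in P (log2 difference 1.97 ± 0.35, limma adjusted p = 0.0283). Pttg1 (securin), the most abundant gene of the list, had 804 to 1012 FPKM in NP and 415 to 754 FPKM in P and did not pass (limma adjusted p = 0.131). Cdc20 had 39.0 to 53.8 FPKM in NP and 23.0 to 35.9 FPKM in P and did not pass (limma adjusted p = 0.201).

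The abundant genes higher in polysomes came from several lists or from none. Ubb, the polyubiquitin B gene, had 1574, 1001 and 1225 FPKM in NP and 3826, 3451 and 3191 FPKM in P (log2 difference 1.48 ± 0.19, SE, n = 3, limma adjusted p = 0.0179). The pseudogene Gm1821 had 920 to 1035 FPKM in NP and 2374 to 2818 FPKM in P. Fth1, the ferritin heavy chain, had 197, 305 and 182 FPKM in NP and 604, 832 and 642 FPKM in P (log2 difference 1.63 ± 0.26, limma adjusted p = 0.0207). Mapk3, which encodes ERK1, had 70.0 to 95.2 FPKM in NP and 189 to 364 FPKM in P. Pcbp1, a poly(C)-binding protein, had 68.9 to 81.7 FPKM in NP and 174 to 264 FPKM in P. Tubb2a, a beta tubulin, had 48.5 to 67.0 FPKM in NP and 130 to 166 FPKM in P (log2 difference 1.36 ± 0.24, limma adjusted p = 0.0284). Dnajb1, a co-chaperone of HSP70, had 19.3, 43.6 and 27.3 FPKM in NP and 119, 111 and 117 FPKM in P. It was the 1 call among 26 chaperone genes (3.85% higher, near the 2.41% of all genes tested), whose median of -1.55 lay on the other side. Scap, the escort of the sterol-sensing transcription factor SREBP, had 3.91, 3.01 and 3.39 FPKM in NP and 22.5, 25.4 and 17.5 FPKM in P (log2 difference 2.65 ± 0.41, limma adjusted p = 0.0197). Slc6a9, the glycine transporter GLYT1 that embryos use to control cell volume, had 4.75 to 7.35 FPKM in NP and 24.7 to 45.1 FPKM in P. The glycolytic gene Gapdh had 8.20 to 10.9 FPKM in NP and 25.3 to 34.3 FPKM in P, and G6pdx of the pentose phosphate pathway 26.5 to 33.1 FPKM in NP and 60.7 to 105 FPKM in P. Apart from Gm1821, Fth1, Tubb2a, Dnajb1, Scap and Slc6a9, the genes of this paragraph were picked among the 15 largest called differences per direction with all 6 values above 1 FPKM, a rule added after the values were seen.

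The largest fitted differences came from genes at or near the floor in one fraction, and their levels are given without a fold change. Arxes1 was at the floor in the 3 NP libraries and at 9.42 to 13.4 FPKM in P. Rfng, a fringe enzyme that modifies Notch, had 0.0251, 0.0318 and 0.469 FPKM in NP and 32.4, 38.9 and 20.4 FPKM in P. Slc16a13, of the monocarboxylate transporter family, had 0.0222 to 0.0438 FPKM in NP and 7.30 to 13.4 FPKM in P. Gys1, the glycogen synthase of muscle and many other tissues, had at most 0.0122 FPKM in NP and 4.25 to 9.92 FPKM in P. In the other direction Tmed1, a cargo receptor between the endoplasmic reticulum and the Golgi, had 19.84, 11.98 and 8.28 FPKM in NP and was at the floor in the 3 P libraries. Prm2, a sperm protamine gene, was at the floor in NP and at 1.94, 6.30 and 3.41 FPKM in P, while the sperm markers Tnp2, Odf1 and Akap4 were at the floor in all 6 libraries. Whether sperm-derived RNA plays a part in other genes was not tested.

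Groups of energy metabolism and protein turnover had few calls. Of 70 nuclear genes for oxidative phosphorylation, 4 were lower (5.71%, near the 3.66% of all genes tested) and 0 higher, and P lay below NP without overlap in 30 of them (42.9%, against 19.1% of all genes tested), with a median of -0.99. Ndufa4 had 10.8 to 17.5 FPKM in NP and 1.10 to 2.22 FPKM in P, and Cox6c 9.75 to 15 FPKM in NP and 2.25 to 2.60 FPKM in P. Cox8a, the most abundant of the list, had 766 to 1099 FPKM in NP and 343 to 684 FPKM in P and did not pass (limma adjusted p = 0.095). In the main test, which called 6.07% of all genes, no gene was called in the lists for the proteasome (38 tested, median -0.57), mTOR and the integrated stress response (22 tested, median 0.58), maternal mRNA storage and clearance (35 tested, median 0.54) or non-coding RNAs (20 tested, median -0.15). The last 3 medians took the other sign in 9, 5 and 9 alternatives. Among genes with every value above 0.1 FPKM, each list had calls. The proteasome had 1 higher and 3 lower of 19, and mTOR 0 and 1 of 8. Storage and clearance had 0 and 1 of 20 (2 and 2 with the block), and non-coding RNAs 2 and 0 of 11. Of all genes in that test, 3.45% were higher and 18.8% lower. Ybx2, an RNA-binding protein that stabilises stored mRNA, had 9.16, 23.7 and 5.59 FPKM in NP and 34.1, 45.7 and 31.5 FPKM in P and did not pass (limma adjusted p = 0.136). Of 36 genes of secretion and the endoplasmic reticulum, Srp14 and Sdf2l1 were lower, 5.56% against 3.66% of all genes tested (64.9 to 116 FPKM and 36.0 to 44.3 FPKM in NP, 18.08 to 20.97 FPKM and 2.99 to 10.3 FPKM in P). Of 30 cytoskeleton genes, Tubb2a was higher and the myosin light chain gene Myl6 lower (3.33% each, near the 2.41% and 3.66% of all genes tested). None of the 15 genes of the mitochondrial genome is in the table.

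The fraction difference varied with the length of the coding sequence. Protein-coding genes tested with a coding length from GENCODE (5501 genes) were divided into 4 groups of near-equal size. In the shortest group (111 to 645 nt) the median log2 difference was -0.86 and 122 genes were lower and 17 higher in P. In the longest (1647 nt and more) it was 0.74, with 3 lower and 42 higher. The higher counts include genes that passed the level filter only through P. Nothing is therefore read from these counts or from the coding length of genes higher in P. The median coding length was 513 nt for genes lower in P, 1268 nt for genes higher in P and 1059 nt for all. Among the 2350 genes with all 6 values above 0.1 FPKM, the medians were -1.23, -0.60, -0.16 and 0.11 from the shortest to the longest group. Of these genes, 120, 29, 18 and 3 were called lower in the main test, in the same order. Those called higher were 2, 3, 11 and 2, with no steady rise with length. Within each of replicates A, B and C the median in this set was lowest in the shortest group and highest in the longest, and Spearman's rho across these genes was 0.34, a description, since all points share the 6 libraries. The median coding length was 453 nt for the ribosomal protein genes tested, 390 nt for histones and 426 nt for oxidative phosphorylation, against 1146 nt for genome activation genes. The part of length in the difference of any list was not tested.

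**Figure D4:**
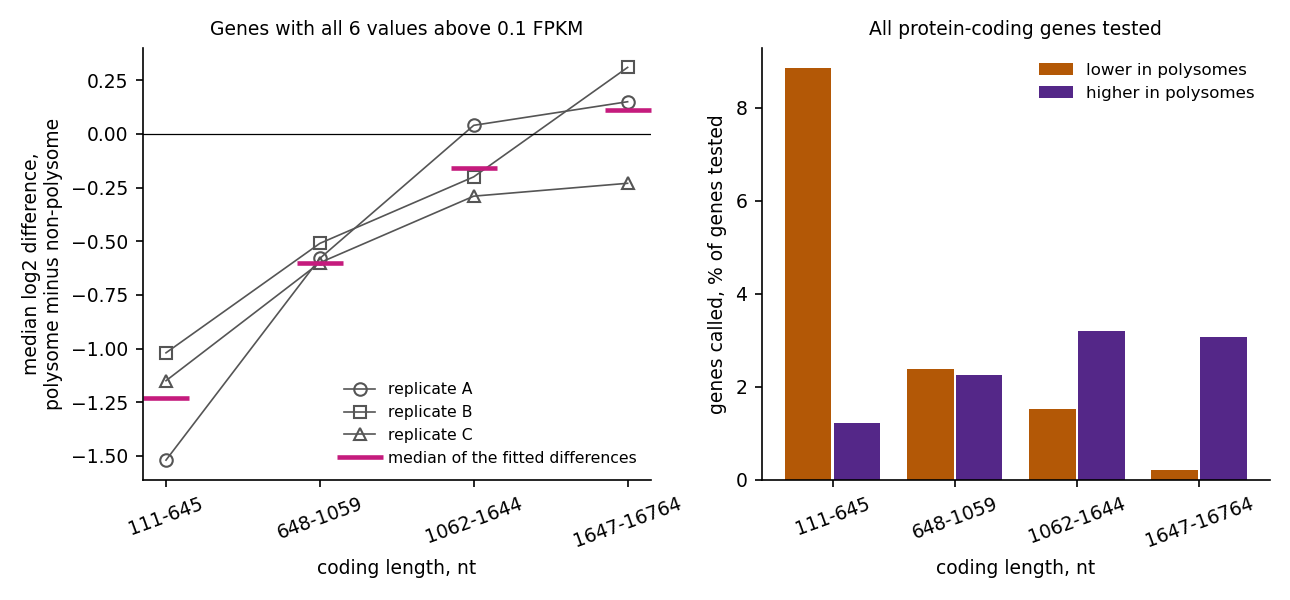
Left, the median log2 difference, polysome minus non-polysome, by group of coding length (nt) for genes with all 6 values above 0.1 FPKM, with 1 line per replicate and a bar for the median of the fitted differences. Right, the share of all protein-coding genes tested that were called lower or higher. The medians rise from -1.23 in the shortest group to 0.11 in the longest, and the share called lower falls from 8.85% to 0.219%. The share called higher includes genes that passed the level filter only through P, and nothing is read from it.

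To ask where the two-cell difference is not that of the zygote, the P minus NP difference of the two-cell libraries was compared with that of zygotes by an interaction contrast over 12 libraries. Of 6126 genes tested, 184 had a higher (3%) and 48 a lower (0.784%) P minus NP difference in two-cell embryos, 3.79% in all, beside a median shift of 0.57. The filter asked only for a geometric mean of 0.1 FPKM in each stage, so a gene can pass through 1 fraction alone. Arxes1 and Gys1, at or near the floor in two-cell NP, are among the 184. How many calls are of this kind was not counted, so nothing is read from the size or balance of these counts. After quantile normalization the counts were 202 and 107, and with 1 FPKM added 108 and 69. With the replicate block the counts were 102 and 11, and the total lay between 131 (without zygote polysome C) and 686 (without two-cell non-polysome C) when each library was left out. Dppa3 had 217, 215 and 130 FPKM in zygote NP and 142, 131 and 168 FPKM in zygote P, which overlap, while in two-cell embryos the fractions were far apart (difference of differences -2.69 ± 0.34, limma adjusted p = 0.00118, 0.033 with the block). H3f3b was at 164 to 200 FPKM in zygote NP and 74.8 to 95.4 FPKM in zygote P, a smaller gap than in two-cell embryos (-1.76 ± 0.22, limma adjusted p = 0.00124, 0.0354 with the block). Rplp0 had 54.5 to 76.3 FPKM in zygote NP and 73.6 to 81.4 FPKM in zygote P (-1.68 ± 0.35, limma adjusted p = 0.0257, 0.124 with the block). Cdc20, the activator of the anaphase-promoting complex, had 34.0 to 47.2 FPKM in zygote NP and 1.65 to 3.37 FPKM in zygote P, so its two-cell fractions were closer (3.36 ± 0.46, limma adjusted p = 0.00207, 0.0252 with the block). Elobl had 2472 to 3362 FPKM in zygote NP and 1634 to 2192 FPKM in zygote P, the opposite order to that in two-cell embryos (1.18 ± 0.25, limma adjusted p = 0.0257, 0.0179 with the block). Ooep and E2f1 also differed (2.06 ± 0.44 and 1.88 ± 0.38, limma adjusted p = 0.0293 and 0.0217, and 0.0583 and 0.0518 with the block). Of the 12 fits that leave out 1 library, Dppa3, H3f3b and Cdc20 were called in all 12, Elobl and E2f1 in 7, Rplp0 in 5 and Ooep in 4. The small cytoplasmic RNA genes Rn7s1 and Rn7s2 of the signal recognition particle were lower in zygote P (9 to 10.8 FPKM for Rn7s1, against 25.2 to 72.7 FPKM in NP), and were at 478 to 1091 FPKM in two-cell P and 282 to 356 FPKM in two-cell NP. Their differences of differences were 3.40 ± 0.54 and 3.21 ± 0.54 (limma adjusted p = 0.00505 and 0.00731, 0.0346 and 0.0187 with the block), and the copies are near-identical.

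**Figure D5:**
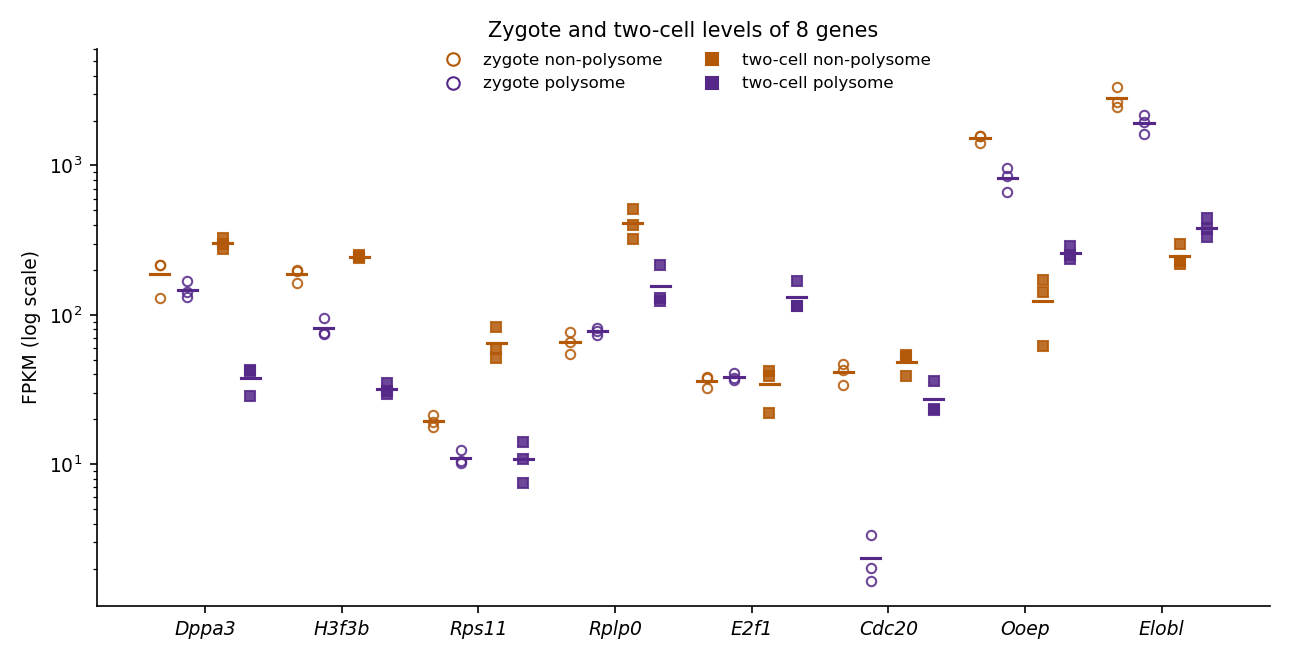
FPKM on a log axis of 8 genes whose fraction difference was called different between stages, with the 3 zygote replicates as open circles, the 3 two-cell replicates as filled squares and bars for the means. Dppa3 overlaps between fractions in zygotes and not in two-cell embryos, and the polysome values of Ooep and Elobl lie below the non-polysome values in zygotes and above them in two-cell embryos.

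Against two-cell M the same contrast called 1 gene higher and 31 lower of 4512 tested (0.0222% and 0.687%, 0.709% in all, 349 at an unadjusted p under 0.05), and with the block 0 and 3. The median difference of differences over all genes tested was -0.62, so the direction of the calls is not read as particular to them. Here too a gene can pass the level filter through 1 fraction alone. The two-cell M libraries were from nocodazole-arrested embryos, so cell cycle phase and drug cannot be told apart. The count was 8 without two-cell polysome C and 85 without two-cell M non-polysome C.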

How the data were processed

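RNA from pooled light (non-polysome) and heavy (polysome) gradient fractions of mouse oocytes and embryos was sequenced as SMART-Seq v4 and Nextera XT libraries, and 3 polysome and 3 non-polysome libraries of interphase two-cell embryos were compared. The values are FPKM that the authors normalized and deposited in 1 table of 36 libraries, with reads trimmed with Trim Galore 0.4.1, aligned with STAR 2.5.3a to GRCm38 and quantified in Partek, per the submitters' processing notes. No raw counts were used here, and the 0.01 floor stands for undetected genes. Of the 38 samples, 2 without a column were not analysed here.

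log2 FPKM (nothing added) of genes with a geometric mean of 0.1 FPKM or more was fitted with limma 3.58.1 (R 4.3.3), with a mean-variance trend and Benjamini-Hochberg adjustment over all genes tested. A gene was called at an adjusted p under 0.05 and a log2 difference beyond 1. Interactions were contrasts over 12 libraries. All p-values are two-sided. The fits were tested on simulated data, with no result of that test given here. The main fit has no replicate block; one gradient is taken to give both fractions of a letter, but residuals of same-letter libraries correlated only at -0.009, 0.117 and 0.072 for A, B and C, so blocked values stand beside the counts.

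The members and lists were chosen with earlier results of these data known. Named genes were the 12 protein-coding calls per direction with the largest difference, at least 10 FPKM in the higher fraction and no overlap, up to 4 called and the 3 most abundant members of each list, the 5 largest non-coding calls, genes named by the study, and the 5 protein-coding genes with the largest called interactions per direction and at least 10 FPKM in 1 of the 4 groups. The text describes part of these. The 15 largest calls per direction with all 6 values above 1 FPKM (which alone name Ubb, Mapk3, Pcbp1, Phb2, Gapdh, G6pdx, D13Ertd608e and Obox8), Zp1, Zp3, Gdf9, Bcl2l10, Gm1821, Rplp2, Rps9, Rpl15, Prm2, members listed to complete a count of calls, and the genes of the chromosome 13 window lie outside this rule and were chosen after their values were seen. Alternatives were other offsets, filters, scalings, libraries and pairing. Gene positions and types are those of the table, coding lengths and 3′ ends are from GENCODE M21, and start sites are from RefSeq.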

Additional observations from a re-analysis of the deposited data

Results flagged for a closer look

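The difference between fractions was itself different between stages for 232 genes against zygotes and for 32 genes against two-cell M, by the interaction contrast in limma. Both counts include genes at or near the floor in 1 fraction. The values below are log2 differences of differences of the protein-coding genes with the largest called values among those with a mean of at least 10 FPKM in 1 of the 4 groups, and those of genes at the 0.01 floor in a group depend on that floor. Among these genes, the largest positive values against zygotes were those of Arxes1 (9.74), Fam84a (9.56), Ndufaf3 (9.38), Gys1 (9.01) and Slc16a13 (8.70), all at or near the floor in two-cell NP. Arxes1 was at the floor in all 3 two-cell NP libraries and so has no spread there, and the others had at most 0.0438 FPKM. No test result is read for these genes. The largest negative values among them were those of BC147527 (-6.04), Fbxo5 (-3.81), Morf4l2 (-3.58), Trim13 (-3.57) and Gm21818 (-3.51), and with the block their adjusted p lay between 0.053 and 0.136. Of the 12 fits without 1 library, Trim13 was called in 12, Fbxo5 in 11, BC147527 and Morf4l2 in 7 and Gm21818 in 3. Outside this choice, called values as large were seen in processed pseudogenes and in Eif4a2, which did not reach 10 FPKM in any library of these groups. Gm6457 (-5.27) had a limma adjusted p of 0.0187 with the block and was called in all 12 fits without 1 library. Gm5837 (-3.82) and Eif4a2 (-4.29) had 0.0865 and 0.102 with the block and were called in 4 of the 12. With 1 FPKM added, Eif4a2 was no longer called (limma adjusted p = 0.117).

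Against two-cell M, by the same choice, Rce1, a protease that processes prenylated proteins, had 11.34. Hcfc1r1 had -9.17, Crip2 -9.11, Gnrh1 -8.58, Arf5 -8.24 and Cenps -7.85. Rce1 lay at 0.0258 to 0.0595 FPKM in two-cell NP, and Hcfc1r1 at the floor in all 3 two-cell M NP libraries. In two-cell M NP, Crip2 had at most 0.0411 FPKM, Gnrh1 0.093, Arf5 0.126 and Cenps 0.212. Eif4a2, given last, had at most 0.0276 FPKM there. At levels this low nothing is read from the test results that follow, which are given for description. With the replicate block their adjusted p lay between 0.0984 and 0.227. Of the 12 fits without 1 library, Gnrh1 was called in 3, Cenps in 10 and the others in 12. With 1 FPKM added, Hcfc1r1, Crip2 and Gnrh1 were no longer called (limma adjusted p = 0.354, 0.101 and 0.122). Eif4a2, below that level, had -10.67 (limma adjusted p = 0.0152, 0.133 with the block) and was called in 9 of the 12 fits without 1 library.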

How the results depend on the processing

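With the replicate block for pairing, 0 genes were called between fractions, 113 for the difference from zygotes and 3 for that from two-cell M. With all libraries in the fit the counts were 1176, 90 and 247. Without a filter on low values 8 genes were called between fractions. Against two-cell M, 9 were called with 1 FPKM added and 14 after quantile normalization. Among alternatives chosen after the data were seen, the block with 1 FPKM added called 178 genes, every value above 0.1 FPKM called 696, and the same with the block 665. When 1 library or 1 letter was left out, the counts lay between 0 and 453 for the fractions, 246 and 621 with every value above 0.1 FPKM (246 without polysome A and 294 without polysome C), 131 and 686 for zygotes and 8 and 85 for two-cell M. With polysome A, polysome C or any letter left out, limma called 0 genes, with 1170 to 1548 genes at an unadjusted p under 0.05. The cause of these shifts was not tested. No named gene that was called, in the main test or in the alternative, reversed its direction, while some genes that did not pass, such as Zbed3 and Hist1h1a, took the other sign after quantile normalization and after division by the FPKM sum. For called genes the direction was fixed under the replicate block and under division by the FPKM sum. The block leaves fitted fraction differences unchanged, and the division moves all genes alike by less than the log2 difference needed for a call. Levels near the floor limit what can be read at low abundance.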
